A study of Mus musculus with 59 samples.

Results

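The SLC25 mitochondrial carriers are a family of transport proteins, and their RNA was followed in the brown adipose tissue (BAT) of 59 mice in 3 experiments. The members were the rows of the count tables whose symbol was Slc25a and a number, without Slc25a20 and Slc25a44, with a mean raw count of 10 or more over all mice. This gave 36 genes of 45 rows with such a symbol and of 55341 rows in all. Slc25a14 and Slc25a29 were just inside this limit, each with a mean of 13.4 counts, and Slc25a47 was just outside it with 9.80. All mice were males of the C57BL/6J background, aged 8 to 12 weeks. In the first experiment wild-type (WT) mice ate food with PTU, which blocks the synthesis of thyroid hormone (TH), and received a single injection of TH. They were killed 3, 6, 12 or 24 h later, with 4 mice at each time and 4 PTU-fed mice without TH as the controls. In the same experiment 5 BATKO mice fed PTU were compared with 5 BATKO mice fed PTU and killed 24 h after TH. In the second, control (CTRL) and BATKO mice were kept at 4 °C (3 CTRL and 4 BATKO) or 30 °C (4 CTRL and 5 BATKO), and the labels give 24 h for this table. In the third, CTRL and BATKO mice received a high-fat diet (HFD; 4 CTRL and 3 BATKO) or chow (4 CTRL and 2 BATKO), with 3.5 days in the labels. The genetic change of the BATKO mice, the gene it affects and the promoter that drives it are not described in the sources used here.

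Carriers of this family sit mostly in the inner mitochondrial membrane and exchange small molecules between cytosol and matrix. They bring in phosphate and ADP for ATP synthesis, export citrate for fatty acid synthesis, and supply the matrix with amino acids, iron and cofactors such as NAD and coenzyme A. UCP1, which lets protons leak back into the matrix and so produces heat in brown fat, belongs to the same family under another kind of name. In brown adipocytes these carriers connect fuel uptake with an oxidation rate that rises in the cold and under TH.

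Defining markers of brown adipocytes were present in every group, with the lowest Ucp1 value of a mouse at 1592 normalized counts in a CTRL mouse at 30 °C. The normalized count is the raw count divided by the TMM-scaled library size of the mouse and multiplied by the mean of these sizes in its experiment. Total counts per mouse were between 7612059 and 18073627, and 39.2% to 55.7% of them came from genes of the mitochondrial genome. The sum of 11 skeletal muscle markers ran from 102 to 97583 normalized counts between mice, and it was above 20000 in 6 mice, of which 4 were kept at 30 °C. At 30 °C the aspartate-glutamate carrier gene Slc25a12 had 482 and 488 normalized counts in the 2 BATKO mice with 89548 and 97583 counts of muscle markers, and between 52.0 and 73.0 in the other 3. The part of muscle RNA in this was not tested. In these bulk samples, fewer cells of a type and less RNA per cell cannot be told apart.

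Compared per kilobase of exon, a few carriers made up a large part of the summed level of the members. In WT mice fed PTU the gene of the citrate carrier, Slc25a1, had the highest level, with 3444 ± 597 normalized counts per kilobase (SD, n = 4). The phosphate carrier gene Slc25a3 followed with 1540 ± 140, and the gene of the ADP/ATP carrier ANT2, Slc25a5, with 1400 ± 122. The ranges of Slc25a3 (1416 to 1728) and Slc25a5 (1284 to 1517) overlapped, whereas that of Slc25a1 (2742 to 4085) stood above both. These 3 genes gave 53.1% of the summed level per kilobase of the members in the PTU controls and 37.5% at 24 h after TH, when Slc25a5 (1898 ± 199) had passed Slc25a1 (1498 ± 144). In CTRL mice at 30 °C the same 3 genes had the 3 highest levels, between 720 and 899 counts per kilobase, and together made up 37.5%. At 4 °C Slc25a3 (1752 ± 366; n = 3), Slc25a5 (1520 ± 377), the glutathione carrier gene Slc25a39 (1501 ± 311) and Slc25a1 (1496 ± 638) had overlapping ranges. The gene of the germ cell ADP/ATP carrier ANT4, Slc25a31, had too few counts to be a member, with a median of 2 raw counts per mouse, a highest value of 11, and 0 counts in 17 of the 59 mice.

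After TH, most of the members that changed in WT mice rose, and their number grew from 3 h to 24 h. Adjusted p-values here and below come from the quasi-likelihood test of edgeR, adjusted by Benjamini-Hochberg over all genes tested, and a gene was called when its adjusted p was below 0.05. At 3 h, 8 of the 36 members were called, 6 higher and 2 lower than in the PTU controls, when 9.12% of all genes were called (5.08% higher, 4.04% lower). With the muscle marker sum as a covariate 5 were called there (4 higher, 1 lower). After 6 h there were 15 (14 higher, 1 lower), beside 23% of all genes (12.1% and 10.9%). The 12 h mice gave 22 (19 higher, 3 lower), beside 25.7% of all genes (13.6% and 12.1%). By 24 h 23 members were called, 18 higher and 5 lower, beside 32.7% of all genes (17.2% and 15.5%). The median log2 fold change of the members was 0.15, 0.35, 0.40 and 0.43 at the 4 times, while that of all genes lay between -0.02 and 0.01. The 4 times were each compared with the same 4 control mice, so their results are not independent of each other. The members' share of the counts of nuclear genes was 0.639% ± 0.020 in the PTU controls and, in the order of the 4 times after TH, 0.746% ± 0.030, 0.783% ± 0.025, 0.773% ± 0.026 and 0.710% ± 0.031 (SD, n = 4 each). Of the 36 members, 21 were higher at one time or more, 5 were lower, and 10 were called at no time, Slc25a3 among them. Over all genes tested, 24% were higher at one time or more, 23.2% were lower, and 53.1% were called at no time.

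Markers of brown adipocytes and of other cell types also changed after TH in WT mice. Of the 9 brown adipocyte markers, 3 were higher and none lower at 3 h (Ucp1, Dio2 and Ppargc1a), and 4 were higher and 1 lower at 6 h. At 12 h 2 were higher and 3 lower, and by 24 h 1 (Ucp1) was higher and 5 were lower (Adipoq, Cidea, Elovl3, Fabp4 and Plin1), with a median log2 fold change of -0.86. Their summed normalized counts had a median of 210960 in the controls (198883 to 229690). All 6 h mice were above this range (255438 to 292720), and the 24 h mice overlapped with it (176825 to 277367). The median log2 fold change of the 11 muscle markers was -1.91, 1.02, -1.74 and 1.07 over the 4 times, with 1 marker called, lower at 12 h. Of the 4 erythroid markers 2 were higher at 3 h (median 1.35) and none was called later. Their sum at 3 h was 16280 in mouse B11 and 2583 to 4447 in the other mice, beside 2341 to 3640 in the controls. At 12 h Cdh5 (endothelial) was lower, and at 24 h Cd68 (immune) and Kdr (endothelial) were higher and Pecam1 (endothelial) was lower. Of the 3 Schwann cell markers, 1 was lower at 12 h and 1 was lower at 24 h. Beyond the fits on muscle markers, the part of these in the carriers' values was not tested.

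**Figure D1:**
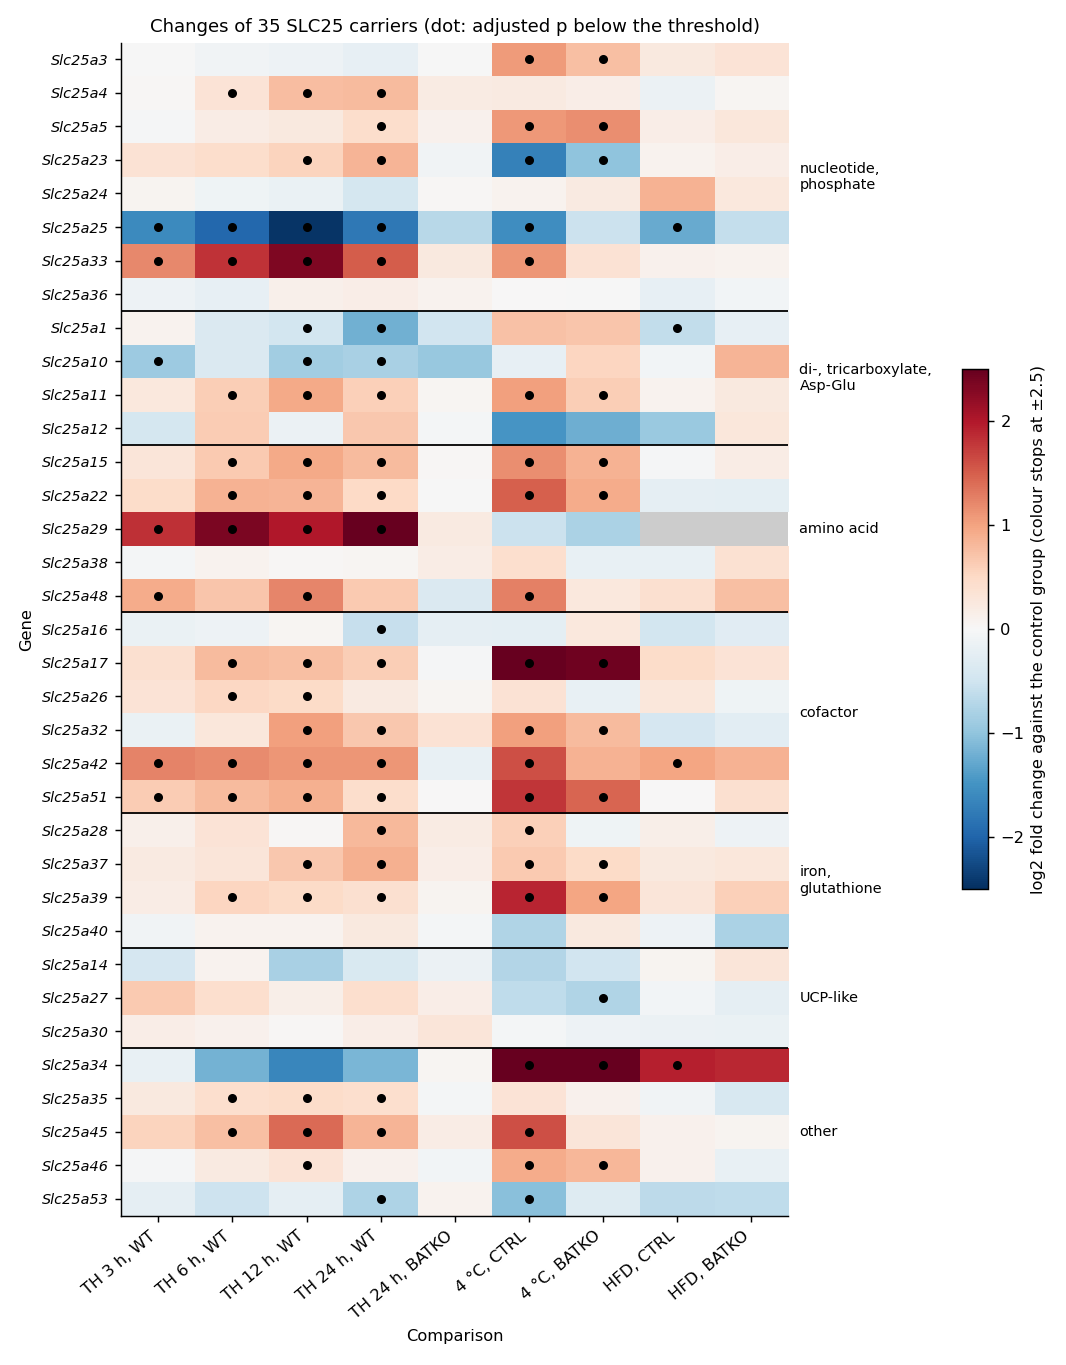
Log2 fold changes (colour, stopping at ±2.5) of 35 SLC25 members (rows, grouped by role) in 9 comparisons (columns); a dot marks an adjusted p below 0.05 and grey a gene not tested. The columns of WT mice after TH and of CTRL mice at 4 °C are mostly red, the column of BATKO mice after TH has no dot, and Slc25a25 is blue in all 9 columns.

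Among the carriers of nucleotides and phosphate, the pyrimidine nucleotide carrier Slc25a33 rose and the calcium-regulated ATP-Mg/phosphate carrier Slc25a25 fell at all 4 times. Slc25a33 had 93.4, 108, 121 and 89.9 normalized counts in the 4 controls, and 3 h after TH the treated mice had 262, 265, 238 and 202. The 6 h mice had 323, 283, 375 and 475, the 12 h mice 515, 494, 549 and 520, and the 24 h mice 298, 256, 348 and 272. No treated mouse overlapped with a control at any time, and the 12 h mice were the highest. Its fold change was 2.3 at 3 h (log2 1.2 ± 0.15 SE, adjusted p = 2.08e-05), 5.05 at 12 h (2.34 ± 0.15, adjusted p = 3.67e-10) and 2.84 at 24 h (1.51 ± 0.15, adjusted p = 1.59e-07). In the annotation, 14.9% of the exon length of Slc25a33 is shared with Gm13068 on the opposite strand, and the strand setting of the counting is not given in the sources used here. Slc25a25 had 74.4, 183, 154 and 250 normalized counts in the controls and 39.2, 44.3, 86.4 and 52.2 at 3 h, when 1 treated mouse was above the lowest control (3.02-fold fall, adjusted p = 0.00656). The 6 h mice had 49.9, 30.2, 37.7 and 52.8. Values were 16.9, 21.6, 42.2 and 40.1 at 12 h, and 16.2, 50.2, 54.5 and 68.4 at 24 h. From 6 h on every treated mouse was below the lowest control, although the controls themselves differed more than 3-fold. The fall was 5.48-fold at 12 h (log2 -2.45 ± 0.39 SE, adjusted p = 8.52e-05) and 3.43-fold at 24 h (-1.78 ± 0.36, adjusted p = 0.000747).

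The promoters of these genes are shown because Slc25a33 rose and Slc25a25 fell at every time, and both hold a cAMP response element (CRE) or a part of it. Of the 36 members, 28 had a promoter of 300 bases in the RefSeq table of GRCm38.p6, some of them several, which gave 37 promoters. The capitals mark TGACG or its complement CGTCA in the promoter of Slc25a33 (chr4:149774218-149774517, minus strand), and TGACGTCA in 1 of the 3 promoters of Slc25a25 (chr2:32424017-32424316, minus strand):
Slc25a33: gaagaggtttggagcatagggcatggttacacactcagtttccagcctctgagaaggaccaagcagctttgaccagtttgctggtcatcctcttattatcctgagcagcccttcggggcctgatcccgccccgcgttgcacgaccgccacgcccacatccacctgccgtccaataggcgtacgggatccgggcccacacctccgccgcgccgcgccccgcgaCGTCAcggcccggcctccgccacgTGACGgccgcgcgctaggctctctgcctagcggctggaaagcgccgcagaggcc
Slc25a25: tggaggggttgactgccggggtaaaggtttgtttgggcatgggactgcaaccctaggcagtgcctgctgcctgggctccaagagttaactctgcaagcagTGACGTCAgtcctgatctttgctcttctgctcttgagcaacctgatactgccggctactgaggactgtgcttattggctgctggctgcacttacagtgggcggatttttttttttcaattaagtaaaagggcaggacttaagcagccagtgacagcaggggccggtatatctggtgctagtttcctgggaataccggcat
TGACGTCA was in 2 of the 37 promoters of members (1 of Slc25a25 and 1 of the other pyrimidine nucleotide carrier, Slc25a36) and in 1.79% of 32851 promoters of all genes. TGACG, which TGACGTCA contains, was in 12 of the 37 and in 20.8% of all promoters. The direct repeat that thyroid hormone receptors bind, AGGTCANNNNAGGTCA, was in none of the members' promoters and in 5 of the 32851 promoters (0.0152%). This exact string is too rare for its absence from 37 promoters to be informative. A match of letters is a description of these windows and says nothing about binding.

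The ADP/ATP carriers rose more slowly than Slc25a33. Slc25a4, which encodes ANT1, had 995, 990, 1034 and 901 normalized counts in the controls, 1734, 1789, 1405 and 1732 at 12 h, and 2015, 1804, 1403 and 1593 at 24 h. The 12 h and 24 h mice were all above the controls, and the rise was 1.74-fold at 24 h (log2 0.80 ± 0.12 SE, adjusted p = 2.07e-05) but not called at 3 h (1.02-fold, adjusted p = 0.915). Slc25a5 had 2114, 2497, 2148 and 2460 in the controls and 3505, 3259, 2983 and 2751 at 24 h, without overlap, and rose 1.35-fold (0.44 ± 0.11, adjusted p = 0.00573). Slc25a4 and Slc25a5 have similar sequences and Slc25a5 has pseudogene copies, so that their counts are uncertain as far as reads were split between them. Slc25a3, the phosphate carrier, had 8070, 9592, 7860 and 8663 in the controls and 8597, 7446, 6456 and 7240 at 24 h, which overlapped (log2 -0.20 ± 0.10 SE, adjusted p = 0.144). A second calcium-regulated ATP-Mg/phosphate carrier, Slc25a23, moved against Slc25a25. It had between 723 and 1313 normalized counts in the controls and between 1693 and 1831 at 24 h, a 1.80-fold rise (0.84 ± 0.17, adjusted p = 0.000503). Slc25a4 is also abundant in muscle. The muscle marker sum had a median of 5489 in the controls and 11642 at 24 h, and with this sum as a covariate Slc25a4 rose 1.71-fold at 24 h (log2 0.78, edgeR adjusted p = 6.90e-05).

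**Figure D2:**
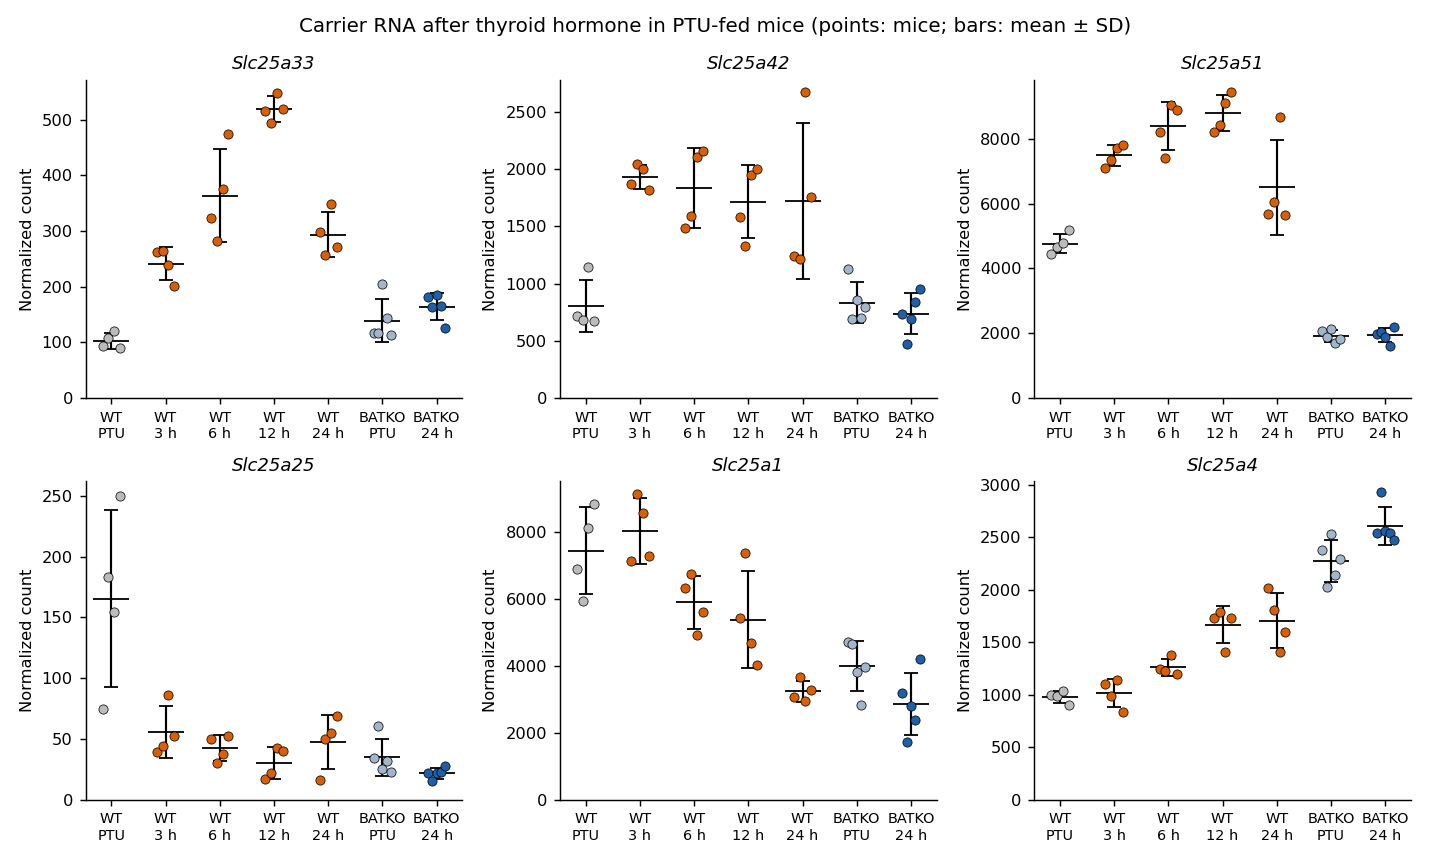
Normalized counts of 6 carriers (y axes, from 0) in the 7 groups of the TH experiment (x axes); points are mice and bars the mean ± SD. Slc25a33 peaks at 12 h in WT mice, Slc25a42 and Slc25a51 are already higher at 3 h, Slc25a25 and Slc25a1 fall, and the BATKO groups overlap in all 6 panels.

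Carriers of dicarboxylates and tricarboxylates divided between falls and rises. Slc25a1 exports citrate, the carbon source of fatty acid synthesis, and had 6898, 5933, 8139 and 8840 normalized counts in the controls, 5452, 7386, 4689 and 4032 at 12 h, and 3087, 3659, 2940 and 3278 at 24 h. The 24 h mice lay in a narrow range far below the controls, a 2.3-fold fall (log2 -1.2 ± 0.16 SE, adjusted p = 7.96e-06), while at 3 h the change was not called (1.06-fold, adjusted p = 0.769). Slc25a10, the dicarboxylate carrier, had 93.4, 102, 111 and 129 in the controls and 61.9, 54.1, 81.2 and 39.7 at 3 h, a 1.88-fold fall without overlap (-0.91 ± 0.24, adjusted p = 0.0205). It was lower again at 12 h and 24 h but not called at 6 h. With the muscle marker sum as a covariate fewer members were called lower at 3 h, and the value of Slc25a10 in that fit is not given here. Slc25a11, the oxoglutarate/malate carrier, rose instead, by 1.92-fold at 12 h (0.94 ± 0.13, adjusted p = 2.14e-05), and shares 8.92% of its exon length with Rnf167 on the opposite strand. Slc25a12 was called at no time.

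Of the 7 carriers of cofactors tested, 5 were higher and 1 was lower at 24 h, beside 17.2% and 15.5% of all genes. The coenzyme A carrier Slc25a42 was among the earliest, with 717, 684, 1141 and 672 normalized counts in the controls and 1867, 2044, 1996 and 1819 at 3 h. Every 3 h mouse was above every control, and the rise of 2.37-fold (log2 1.24 ± 0.22 SE, adjusted p = 0.000943) was the largest of its 4 times. At 24 h it had 1241, 1218, 2670 and 1756, still above the controls (2.14-fold, adjusted p = 0.000595). The NAD carrier Slc25a51 had 4461, 4657, 4773 and 5183 in the controls and 8226, 8427, 9106 and 9437 at 12 h, a 1.86-fold rise without overlap (0.89 ± 0.12, adjusted p = 1.2e-05). At 24 h its mean was 6512 ± 1465 (SD, n = 4), 1.36-fold above the controls. The peroxisomal cofactor carrier Slc25a17 was called from 6 h (1.73-fold, adjusted p = 0.000534) and the folate and FAD carrier Slc25a32 only from 12 h (2.02-fold, adjusted p = 0.00059). Slc25a16, a carrier linked to coenzyme A, was the member that fell, from 1705 ± 126 to 1139 ± 115 at 24 h (SD, n = 4 each; 1.5-fold, adjusted p = 7.06e-05).

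Of the 5 members grouped as amino acid carriers, a choline carrier among them, 4 were higher and none lower at 12 h, beside 13.6% and 12.1% of all genes. The glutamate carrier Slc25a22 had 801, 900, 1008 and 943 normalized counts in the controls and 1518, 1473, 1717 and 2021 at 6 h, a 1.82-fold rise without overlap (log2 0.87 ± 0.15 SE, adjusted p = 0.00023). The ornithine carrier Slc25a15 was 1.92-fold higher at 12 h (adjusted p = 9.99e-06). Slc25a48, the choline carrier, had 124, 144, 109 and 240 in the controls and 275, 351, 350 and 207 at 3 h. A control and a treated mouse crossed, and the rise of 1.90-fold (0.93 ± 0.26, adjusted p = 0.0285) was no longer called in 5 of the 8 fits that left out a mouse. Slc25a29, a carrier of basic amino acids, had the largest log2 fold change of the members at 24 h (2.62 ± 0.41, adjusted p = 5.39e-05), on very few reads. Its raw counts were 3, 1, 4 and 3 in the controls, and its mean normalized count was 2.75 ± 1.05 in the controls and 17.9 ± 3.43 at 24 h. The glycine carrier Slc25a38 was called at no time, nor was the aspartate-glutamate carrier Slc25a12, which is not among the 5.

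Of the 4 iron and glutathione carriers, 3 were higher at 24 h and none was lower, beside 17.2% and 15.5% of all genes. Mitoferrin 1, Slc25a37, had 185, 195, 260 and 214 normalized counts in the controls and 451, 394, 324 and 416 at 24 h, all above the controls (1.85-fold, log2 0.89 ± 0.15 SE, adjusted p = 0.000148). The erythroid marker sum had a median of 3212 in the controls and 2780 at 24 h. Mitoferrin 2, Slc25a28, was called at 24 h alone (1.74-fold, adjusted p = 0.000216), and the glutathione carrier Slc25a39 from 6 h on (1.46-fold at 6 h, adjusted p = 0.00217). The 3 carriers that resemble uncoupling proteins (Slc25a14, Slc25a27 and Slc25a30) were among the 10 members called at no time. Among the carriers without an assigned role here, Slc25a45 rose 2.67-fold at 12 h (adjusted p = 0.000421) and Slc25a35 1.34-fold at 24 h (adjusted p = 0.013), the latter with 31.3% of its exon length shared with Rangrf on the opposite strand. Slc25a34 pointed down without a call. It had 445, 304, 235 and 203 in the controls and 33.7, 52.7, 375 and 62.1 at 24 h, where a single treated mouse was within the range of the controls (log2 -1.15 ± 0.61 SE, adjusted p = 0.157).

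In BATKO mice fed PTU, TH changed none of the 36 members past the threshold at 24 h by edgeR, and none by DESeq2. At an unadjusted p below 0.05 there were 3. Over all 14168 genes tested 0% were called, with 677 at an unadjusted p below 0.05. The median log2 fold change of the members was 0.03, beside -0.01 for all genes. The difference between the BATKO and WT responses, tested as an interaction over all 30 mice of the experiment, was called for 11 members, all with a lower response in BATKO mice, when 12.3% of all genes were called (5.13% higher, 7.13% lower). They included Slc25a4, Slc25a11, Slc25a15, Slc25a17, Slc25a23, Slc25a28, Slc25a29, Slc25a33, Slc25a37 and Slc25a42, each of which rose in WT mice at 24 h. The number was 7 when the BATKO control replicate 4 was left out. The starting levels of these members also differed. Without TH, BATKO mice had 2026 to 2532 normalized counts of Slc25a4, above WT mice at 24 h (1403 to 2015). They had 252 to 377 of Slc25a28, beside 190 to 294 in WT mice at 24 h. Slc25a17 (417 to 605) and Slc25a37 (80.5 to 95.5) were instead below the WT controls (764 to 1018 and 185 to 260). The part of the starting level in the responses was not tested. Of the 9 brown adipocyte markers, 4 had a higher response in BATKO than in WT mice and none a lower one (median difference 0.76 on the log2 scale), and their part in the carriers' values was not tested. For Slc25a42 the BATKO mice had 1125, 694, 853, 699 and 798 normalized counts without TH and 731, 473, 687, 837 and 955 with it, ranges that overlap widely. The response of Slc25a42 was lower in BATKO by 1.28 on the log2 scale (-1.28 ± 0.30 SE, adjusted p = 0.00541). Slc25a33 had 117, 117, 204, 144 and 113 without TH and 181, 164, 185, 166 and 125 with it (difference of responses -1.27 ± 0.23, adjusted p = 0.000559). Slc25a23 had between 1772 and 2306 without TH and between 1457 and 2334 with it (-0.93 ± 0.22, adjusted p = 0.00627).

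The members that fell in WT mice gave no called difference between genotypes. Slc25a25 changed by -1.78 ± 0.36 in WT and -0.69 ± 0.36 in BATKO mice on the log2 scale (SE; adjusted p of the difference = 0.16). Its level was already low in BATKO controls, at 34.9 ± 15.2 normalized counts (SD, n = 5) beside 165 ± 72.7 in WT controls. Slc25a1 changed by -1.2 ± 0.16 and -0.49 ± 0.18 (adjusted p of the difference = 0.0781), and Slc25a10 by -0.82 ± 0.24 and -0.95 ± 0.27 (adjusted p of the difference = 0.872). In BATKO mice Slc25a10 had 170, 160, 58.5, 91.7 and 88.0 normalized counts without TH and 84.3, 24.8, 57.6, 60.5 and 66.1 with it, with an unadjusted p of 0.00161 and an adjusted p of 0.94. Without TH the 2 genotypes stood apart in several members: Slc25a3 had 8546 ± 776 in WT and 2549 ± 175 in BATKO mice, Slc25a16 had 1705 ± 126 and 502 ± 27.7, and Slc25a4 had 980 ± 56.3 and 2274 ± 198. These differences in level were not tested, because the mice of the genotypes also differ in depth (12022144 to 14615534 counts in WT controls, 14681206 to 18073627 in BATKO controls) and their origin is not described, so that these cannot be told apart.

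**Figure D3:**
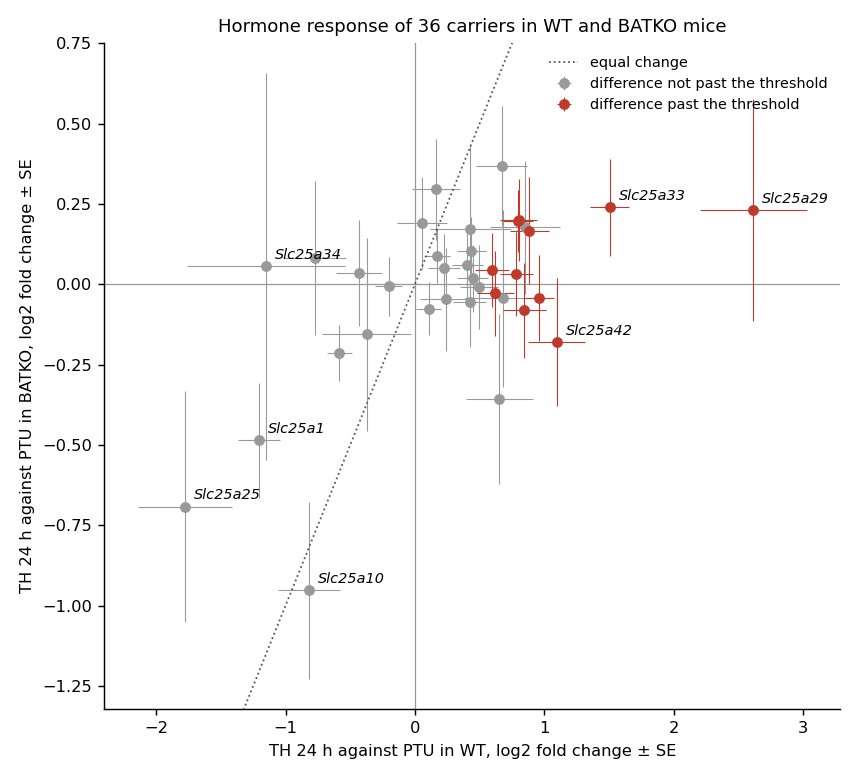
Log2 fold change 24 h after TH in BATKO mice (y axis) against that in WT mice (x axis) for the 36 members, with bars for the SE; red marks the 11 members whose difference between genotypes was called. Points of members that rose in WT mice lie near 0 on the y axis, and Slc25a10 lies near the dotted line of equal change.

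In CTRL mice 21 of the 36 members differed between 4 °C and 30 °C, 18 higher and 3 lower in the cold, when 49.1% of all genes were called (26.5% higher, 22.6% lower). The median log2 fold change was 0.63 for the members and -0.01 for all genes. The summed brown adipocyte markers rose in the same comparison, from a median of 72756 to 336926 normalized counts, and the erythroid markers from 2821 to 15176, while the muscle markers ran from 102 to 55009 at 30 °C and from 1701 to 7623 at 4 °C. Of the 9 brown adipocyte markers 8 were higher and 1, Adipoq, was lower. Ptprc (immune) and Dcn (fibroblast) were also lower and Kdr (endothelial) was higher, and the immune marker sum was between 183 and 268 at 30 °C and between 116 and 140 at 4 °C. The part of these in the carriers' values was not tested, beyond the muscle marker sum as a covariate, with which 22 members were called (18 higher, 4 lower). Slc25a34, a carrier without an assigned substrate here, changed most, with 17.4, 8.70, 9.04 and 4.23 normalized counts at 30 °C and 687, 970 and 494 at 4 °C. It was the lowest of all members per kilobase at 30 °C, and the 2 groups were far apart (70.7-fold, log2 6.14 ± 0.56 SE, adjusted p = 3.96e-07). The range over fits that left out a mouse was 5.88 to 6.56 on the log2 scale.

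Next came a set of cofactor and glutathione carriers. Slc25a17, which works in peroxisomes rather than mitochondria, had 459, 330, 307 and 382 normalized counts at 30 °C and 2259, 2903 and 2666 at 4 °C, a 7.06-fold rise (log2 2.82 ± 0.18 SE, adjusted p = 2.11e-08). Slc25a39, which brings glutathione into mitochondria and is also abundant in developing red cells, had 1059, 1180, 929 and 1233 at 30 °C and 4670, 4594 and 3149 at 4 °C (3.76-fold, 1.91 ± 0.18, adjusted p = 4.77e-07). Slc25a51, the NAD carrier, had 1112, 1529, 1703 and 2345 at 30 °C and 5959, 5995 and 5316 at 4 °C (3.44-fold, 1.78 ± 0.23, adjusted p = 8.82e-06). In each of these 3 genes the groups were separate by a wide gap. Slc25a45 had 43.4, 52.2, 34.3 and 15.8 at 30 °C and 104, 136 and 95.7 at 4 °C (3.04-fold, adjusted p = 0.000197). Of the 7 cofactor carriers, 5 were higher and none lower, beside 26.5% and 22.6% of all genes, with Slc25a42 at 3.04-fold (adjusted p = 0.00274).

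The promoters of Slc25a34, Slc25a39 and Slc25a45 are shown because they were the only ones of the 37 with the core nuclear receptor motif AGGTCA (either strand, in capitals, TGACCT where it is on the other strand; 16.3% of all promoters), and each of the 3 genes was higher in the cold in CTRL mice. They lie at chr4:141623785-141624084 (minus strand), chr11:102407468-102407767 (minus strand) and chr19:5877572-5877871 (plus strand) of GRCm38.p6, and the motif starts 119, 172 and 50 bases before the start of the transcript:
Slc25a34: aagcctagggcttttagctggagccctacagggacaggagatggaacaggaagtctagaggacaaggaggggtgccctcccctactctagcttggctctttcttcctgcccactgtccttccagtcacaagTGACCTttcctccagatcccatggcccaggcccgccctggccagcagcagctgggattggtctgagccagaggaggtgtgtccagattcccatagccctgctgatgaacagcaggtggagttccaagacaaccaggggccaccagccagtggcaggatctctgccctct
Slc25a39: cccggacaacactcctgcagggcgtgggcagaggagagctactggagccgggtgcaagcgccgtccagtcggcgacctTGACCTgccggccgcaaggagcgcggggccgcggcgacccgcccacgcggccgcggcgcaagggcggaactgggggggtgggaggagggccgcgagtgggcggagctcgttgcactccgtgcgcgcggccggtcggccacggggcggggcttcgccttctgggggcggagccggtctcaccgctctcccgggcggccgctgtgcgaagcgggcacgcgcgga
Slc25a45: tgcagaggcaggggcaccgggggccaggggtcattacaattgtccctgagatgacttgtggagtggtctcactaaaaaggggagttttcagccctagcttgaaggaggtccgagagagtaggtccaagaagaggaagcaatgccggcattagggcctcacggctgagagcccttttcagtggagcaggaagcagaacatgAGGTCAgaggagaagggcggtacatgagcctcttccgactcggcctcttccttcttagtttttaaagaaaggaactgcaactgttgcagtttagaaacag
The longer element TCAAGGTCA, which contains AGGTCA, was in none of the 37 and in 0.423% of all promoters. GGGCGG was in 35 of the members' 37 promoters and in 35.7% of all promoters. In the cold 18 of the 36 members were higher in CTRL mice, and no link between a motif and a response was tested.

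Of the phosphate and ADP/ATP carriers, Slc25a3 and Slc25a5 rose in the cold in CTRL mice and Slc25a4 was not called. Slc25a3 had 3862, 4907, 5027 and 4740 normalized counts at 30 °C and 12054, 8770 and 8339 at 4 °C, a 2.10-fold rise without overlap (log2 1.07 ± 0.17 SE, adjusted p = 6.82e-05). Slc25a5 had 1072, 1224, 1129 and 1319 at 30 °C and 1788, 2806 and 2914 at 4 °C (2.11-fold, 1.08 ± 0.19, adjusted p = 0.000236). Slc25a4 had 855, 1178, 1481 and 1083 against 1199, 1410 and 1445, and these groups overlapped (1.18-fold, 0.23 ± 0.20, adjusted p = 0.353). Slc25a33 rose 2.14-fold (adjusted p = 0.0014). The 3 members that fell were Slc25a23, Slc25a25 and Slc25a53. Slc25a23 had 2445, 2171, 1692 and 2046 at 30 °C and 511, 781 and 652 at 4 °C, a 3.22-fold fall without overlap (-1.69 ± 0.25, adjusted p = 3.50e-05). Slc25a25 had 45.2, 183, 150 and 231 at 30 °C and 65.0, 44.1 and 45.5 at 4 °C, and 1 mouse at 30 °C was as low as the cold mice (2.94-fold, -1.56 ± 0.61, adjusted p = 0.0427). Mitoferrin 1 was 1.58-fold higher (adjusted p = 0.00207), in the comparison in which the erythroid markers also rose. Slc25a1 rose 1.66-fold without a call (adjusted p = 0.0593).

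In BATKO mice 14 members were called in the cold, 12 higher and 2 lower, when 40.2% of all genes were called (21.4% higher, 18.9% lower). Of the 9 brown adipocyte markers 7 were higher (median log2 fold change 1.19), and of the 4 erythroid markers 2 (median 1.63), with none lower in either list, and 1 of the 3 endothelial markers was lower. The muscle marker sum was 89548 and 97583 in 2 of the 5 mice at 30 °C. Without the mice rich in muscle markers 13 members were called (12 higher, 1 lower), and with the muscle marker sum as a covariate 16 (13 higher, 3 lower). The part of the brown adipocyte and erythroid markers in the carriers' values was not tested. Of the 14 called members, 13 were also called in CTRL mice and in the same direction. This was 92.9% of the BATKO list and 61.9% of the CTRL list, and the same shares over all genes are not given here. The other called member was Slc25a27 (UCP4), lower in the cold in BATKO mice (19.5 to 35.8 normalized counts beside 25.5 to 67.4 at 30 °C). It was not called in CTRL mice, although every CTRL mouse at 4 °C (21.4 to 34.3) was below those at 30 °C (37.0 to 50.4). Slc25a34 had 23, 3.02, 2.84, 14.2 and 22.8 normalized counts at 30 °C and 200, 386, 304 and 128 at 4 °C (18.5-fold, log2 4.21 ± 0.47 SE, adjusted p = 5.13e-06). Slc25a17 had 293, 281, 384, 408 and 401 against 1837, 2057, 2156 and 1537 (5.36-fold, 2.42 ± 0.16, adjusted p = 7.62e-08). Both were separate without overlap, as were Slc25a51 (2.75-fold, adjusted p = 3.21e-05) and Slc25a5 (2.23-fold, adjusted p = 6.72e-05). Slc25a5 had 946, 768, 1280, 1181 and 935 at 30 °C and 2120, 2751, 1910 and 2342 at 4 °C. Slc25a51 had 1217, 1640, 1881, 2111 and 1957 against 4492, 5159, 5901 and 3857. Slc25a3 was 1.69-fold higher (adjusted p = 0.000716).

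No member differed between BATKO and CTRL mice by edgeR at 4 °C, where 9 had an unadjusted p below 0.05 and 2.16% of all genes were called (0.958% higher, 1.2% lower). DESeq2 called 3 (Slc25a23 higher, Slc25a39 and Slc25a45 lower in BATKO). At 30 °C edgeR and DESeq2 called 0, with 3 at an unadjusted p below 0.05 and 0.00754% of all genes called. The difference between the cold responses was called for 0 members by edgeR and 2 by DESeq2 (Slc25a39 and Slc25a45), with 9 at an unadjusted p below 0.05 and 1.12% of all genes called (0.317% higher, 0.807% lower). The values nearest to a call at 4 °C were those of Slc25a23, with 984, 1177, 1162 and 1484 normalized counts in BATKO mice, all above the CTRL mice (1.85-fold, log2 0.89 ± 0.24 SE, adjusted p = 0.0611), and of Slc25a34, all below the CTRL mice (2.82-fold, -1.49 ± 0.44, adjusted p = 0.0858). For Slc25a39 the cold response was lower in BATKO by 0.93 on the log2 scale (-0.93 ± 0.24, adjusted p = 0.0641). The median log2 fold change of the brown adipocyte markers between genotypes at 4 °C was -0.62.

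**Figure D4:**
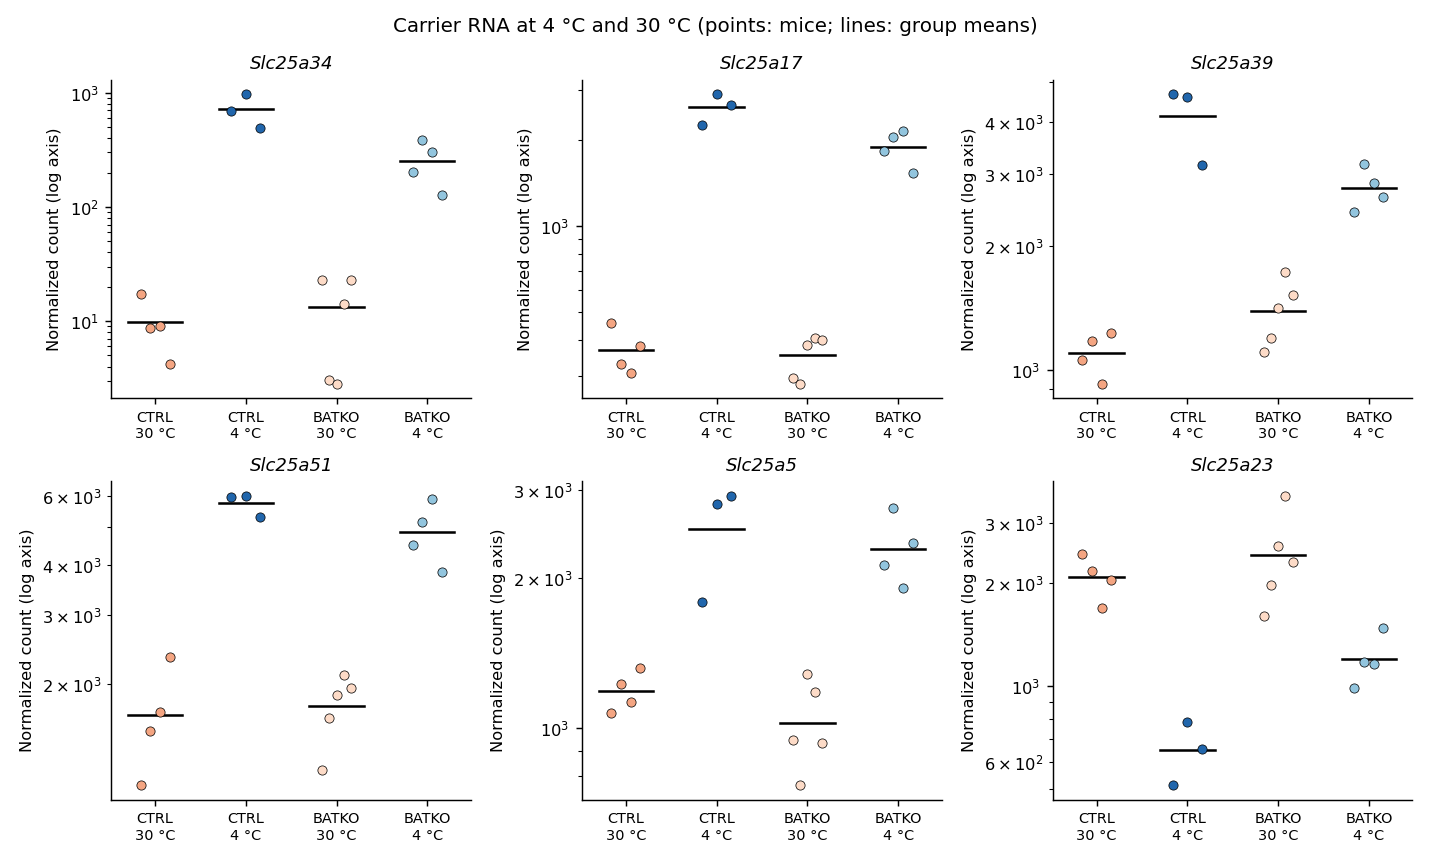
Normalized counts of 6 carriers (y axes, log scale) in CTRL and BATKO mice at 30 °C and 4 °C (x axes); points are mice and lines the group means. The 2 temperatures do not overlap in any panel for either genotype; Slc25a34 spans from 2.84 to 970 and Slc25a23 is lower at 4 °C.

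TH and cold were tested in different mice, and their calls can be set side by side. Of the 23 members called 24 h after TH in WT mice and the 21 called in the cold in CTRL mice, 17 were in both lists (73.9% of the first and 81.0% of the second). In the same direction were 14 higher in both and 2 lower in both, Slc25a25 and Slc25a53. The exception was Slc25a23, which rose 1.80-fold after TH and fell 3.22-fold in the cold. In the cold list alone were Slc25a3, Slc25a34, Slc25a46 and Slc25a48. In the TH list alone were Slc25a1, Slc25a4, Slc25a10, Slc25a16, Slc25a29 and Slc25a35. Neither list held 9 members. In these comparisons 32.7% and 49.1% of all genes were called, and no test of the overlap was made. The share of all genes called in both is not given here.

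**Figure D5:**
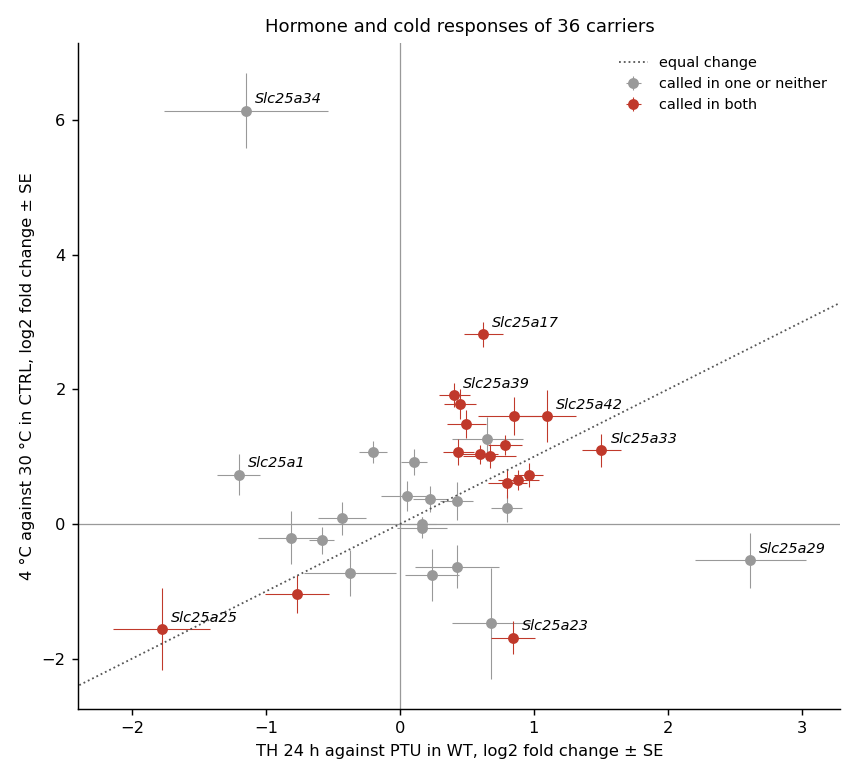
Log2 fold change at 4 °C against 30 °C in CTRL mice (y axis) against that 24 h after TH in WT mice (x axis) for the 36 members, with bars for the SE; red marks the 17 members called in both. Most red points are in the upper right, Slc25a25 is in the lower left, Slc25a23 in the lower right, and Slc25a34 at 6.14 on the y axis and -1.15 on the x axis.

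The short HFD changed few carriers. In CTRL mice 4 of the 35 members tested were called, 2 higher and 2 lower, when 3.93% of all genes were called (1.89% higher, 2.04% lower), and 12 had an unadjusted p below 0.05. The count was between 1 and 5 when a mouse was left out, 8 with no minimum count and 2 in a fit of only the groups compared. It was 1 without chow replicate 1, chow replicate 2 or HFD replicate 11, and 2 without HFD replicate 9 or 10. Among the cell type markers, Cox8b (brown adipocyte) and Col1a1 (fibroblast) were higher on HFD. The fibroblast marker sum was between 1602 and 2044 on chow and between 2174 and 2672 on HFD, and its part in the carriers' values was not tested. Slc25a25 had 175, 239, 196 and 175 normalized counts on chow and 88.0, 51.1, 99.2 and 90.5 on HFD, a 2.38-fold fall without overlap (log2 -1.25 ± 0.18 SE, adjusted p = 0.00225). Slc25a42 had 637, 643, 1351 and 961 on chow and 1845, 1819, 1448 and 1959 on HFD, again without overlap (1.97-fold, 0.98 ± 0.24, adjusted p = 0.0328), but 6 of the 8 fits that left out a mouse did not call it. Slc25a34 rose 3.86-fold, from 9.28 ± 4.87 to 36.2 ± 20.1 (SD, n = 4 each; adjusted p = 0.0311), and it was not called without chow replicate 1, chow replicate 2 or HFD replicate 11, when no member was called higher. Slc25a1 had 1042, 1138, 1373 and 801 on chow and 784, 650, 637 and 790 on HFD, a narrow separation (1.52-fold fall, -0.61 ± 0.16, adjusted p = 0.047) that 7 of the 8 such fits did not call. Without the chow mouse with 21281 counts of muscle markers, replicate 3, its adjusted p was 0.085. Slc25a3, Slc25a4 and Slc25a5 were not called (adjusted p = 0.453, 0.554 and 0.352). On chow Slc25a3 had 2375, 2256, 3758 and 3009 normalized counts and on HFD 3541, 3769, 3547 and 2612, which overlapped.

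In BATKO mice the HFD changed none of the 35 members by edgeR, with 8 at an unadjusted p below 0.05 and 0.0696% of all genes called (0.031% higher, 0.0387% lower), and DESeq2 called 1, Slc25a39. This comparison rests on 2 BATKO mice on chow. The fold changes of the 4 members called in CTRL mice had the same signs in BATKO mice: -0.59 ± 0.22 for Slc25a25, 0.86 ± 0.31 for Slc25a42, 1.89 ± 0.59 for Slc25a34 and -0.21 ± 0.20 for Slc25a1 on the log2 scale (SE). BATKO and CTRL mice differed in 0 members on HFD (edgeR and DESeq2, 0% of all genes called, 1 member at an unadjusted p below 0.05) and in 0 on chow (the same tools, 0% of all genes, 4 members). The difference between the HFD responses was called for 0 members by both tools, with 2 at an unadjusted p below 0.05 and 0% of all genes called. Slc25a25 and Slc25a42 were thus the members called in the same directions in WT mice after TH, in CTRL mice in the cold and in CTRL mice on HFD, the first lower and the second higher. The HFD call of Slc25a42 was lost in 6 of the 8 fits that left out a mouse. The values of Slc25a25 in CTRL mice at 4 °C (44.1 to 65.0) overlapped with those at 30 °C (45.2 to 231).

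Other genes of mitochondrial transport gave a setting for these changes. Of 7 related genes outside the members (Ucp1, Ucp2, Ucp3, Mtch1, Mtch2, Slc25a20 and Slc25a44), 5 were higher 24 h after TH and 6 were higher in the cold in CTRL mice, with none lower. Over all genes, 17.2% were higher and 15.5% lower after TH, and 26.5% were higher and 22.6% lower in the cold, and the counts of the small lists here can lie near these shares. Ucp1 rose by 0.93 ± 0.21 after TH and by 4.40 ± 0.52 in the cold on the log2 scale (SE; adjusted p = 0.00164 and 4.57e-06), while 5 of the 9 brown adipocyte markers, a list that holds Ucp1, were lower 24 h after TH. Both subunits of the mitochondrial pyruvate carrier, Mpc1 and Mpc2, were higher in both. Of 12 tested genes of the machinery that imports carriers into the inner membrane (TIM22, small TIM and TOM proteins), 5 were higher after TH and 11 in the cold, with none lower. Of the 3 outer membrane channels (Vdac genes), 2 were higher in each. For the 7 tested genes of the calcium uniporter, 3 were higher and 1 lower after TH, and 4 higher and 1 lower in the cold. The 5 sideroflexins, another family of inner membrane transporters, gave 1 higher after TH, and 2 higher and 1 lower in the cold. After TH in BATKO mice, no gene of any list was called, as for all genes tested there.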

How the data were processed

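RNA-seq counts of BAT from 59 male mice were used. Per the labels and the study's methods, RNA was isolated with Trizol, libraries were built with a total RNA SENSE kit and reads were aligned to GRCm38 (mm10). The submitters' processing notes name Bowtie2 (version 2.3.2.2) and DESeq2. The authors discarded alignments of low quality and used htseqcount, and the deposited values are raw counts, with no normalization. The annotation and strand setting of the counting are not given in the sources used here. Samples are separate mice and were grouped by their labels. Left out were 14 genes whose symbols had become dates. No pair of mice in a group agreed within sampling noise (91 pairs, lowest chi-square per degree of freedom 6.81).

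Tests used edgeR (version 4.0.16, in R version 4.3.3) with TMM scaling, a minimum mean of 10 normalized counts over the mice fitted, the quasi-likelihood F test and a Benjamini-Hochberg threshold of 0.05. Each SE is the log2 fold change divided by the root of F. WT times were fitted on the WT mice of that experiment, BATKO and interaction results on all 30 mice, and temperature and diet on all mice of each experiment. Alternatives were DESeq2 (version 1.42.0), its size factors, no minimum, other sets of mice, library sizes without mitochondrial genes, and each mouse left out. A further pair was chosen after seeing the data: without 6 mice rich in muscle markers, and with the log2 marker sum as a covariate. The fits were tested on simulated data.

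Values per mouse follow this rule: the phosphate and ADP/ATP carriers always, and in each comparison the called members with a mean above 50 normalized counts and the largest absolute log2 fold change, up to 6 for TH at 24 h in WT and for cold in CTRL, up to 4 elsewhere, and up to 4 whose response differed between genotypes. Slc25a10, Slc25a11, Slc25a12, Slc25a15, Slc25a16, Slc25a28, Slc25a29, Slc25a32 and Slc25a35, and Slc25a17, Slc25a23, Slc25a25, Slc25a34, Slc25a39, Slc25a45 and Slc25a51 where they are outside this rule, were described after their values were seen. The values of 1 member are not reported here, although it is in the counts. The members and lists were chosen with earlier results of these data known. Levels per kilobase use exon lengths of GENCODE M21 on GRCm38, and promoters are those of RefSeq.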

Additional observations from a re-analysis of the deposited data

Results flagged for a closer look

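A mouse far from the others of its group was looked for in 17 carriers and 204 groups of 4 or 5 mice, with a ratio of its gap from the nearest mouse to the whole range. It was found in 10 groups, and chance alone gives about 10.2 of 204 (1 in 20). In Slc25a34 at 24 h after TH, mouse B27 had 375 normalized counts and the others 33.7 to 62.1 (ratio 0.917), and in Slc25a51 the same mouse had 8692 beside 5636 to 6050 (0.865). In Slc25a42 control B4 had 1141 beside 672 to 717 (0.902). In CTRL mice on HFD, mouse 10 was low in Slc25a23 (704 beside 1019 to 1049, ratio 0.911) and in Slc25a48 (240 beside 391 to 410, ratio 0.889). Among the WT mice at 6 h, Slc25a3 was low in B17 (7366 beside 8281 to 8412, ratio 0.875) and Slc25a5 high in B15 (3224 beside 2381 to 2492, ratio 0.869). Slc25a4 was low in B21 at 12 h (1405 beside 1732 to 1789, ratio 0.853). BATKO mouse 8 after TH was high in Slc25a4 (2925 beside 2471 to 2558, ratio 0.81) and Slc25a37 (155 beside 78.6 to 92.4, ratio 0.818).

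The response to TH at 24 h differed between BATKO and WT mice, by the interaction test, in 11 carriers, each with a lower response in BATKO mice. Of those given here, the difference on the log2 scale was -2.39 for Slc25a29, -1.28 for Slc25a42, -1.27 for Slc25a33 and -0.93 for Slc25a23. It was -0.76 for Slc25a15, -0.72 for Slc25a37, -0.65 for Slc25a17, -0.60 for Slc25a28, -0.60 for Slc25a4 and -0.55 for Slc25a11. Depth and genotype cannot be told apart in these mice.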

How the results depend on the processing

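No paired analysis was possible because the groups compared share no mouse numbers. No value reversed. DESeq2's size factors and library sizes without mitochondrial genes kept every count of called carriers within 1.5 times, as did leaving out the muscle-rich mice and, for WT mice after TH, fitting all 30 mice. DESeq2 called 3 carriers between genotypes at 4 °C (Slc25a23, Slc25a39 and Slc25a45), 2 for the cold responses (Slc25a39 and Slc25a45) and 1 for HFD in BATKO mice (Slc25a39), each against 0. With no minimum count, 2 were called between genotypes at 4 °C (Slc25a23 and Slc25a34), 8 in place of 4 for HFD in CTRL, 3 for HFD in BATKO (Slc25a34, Slc25a42 and Slc25a48) and 1 between genotypes on chow (Slc25a24). With the groups compared alone, HFD in CTRL gave 2. With the muscle marker sum as a covariate, chosen after seeing the data, 5 in place of 8 were called at 3 h and 2 at 4 °C between genotypes (Slc25a23 and Slc25a34). The cause was not tested.

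Leaving out each mouse gave 6 to 9 carriers at 3 h, 12 to 15 at 6 h, 21 to 22 at 12 h, 21 to 25 at 24 h, 18 to 23 for cold in CTRL and 12 to 16 for cold in BATKO. The difference of TH responses ranged from 7 (without BATKO control 4) to 13. It was 0 to 1 between genotypes at 4 °C (Slc25a39 without CTRL 4 °C mouse 5), and 0 to 2 for the cold responses (Slc25a39 without BATKO 30 °C mouse 13, and Slc25a39 and Slc25a45 without CTRL 4 °C mouse 5). HFD in CTRL gave 1 to 5, with 1 without chow mouse 1, chow mouse 2 or HFD mouse 11, and 2 without HFD mouse 9 or 10. The other comparisons gave 0 in each fit. Slc25a1 on HFD had an adjusted p of 0.0511 with DESeq2's size factors and 0.0692 with the groups compared alone, and Slc25a48 at 3 h had 0.138 with the covariate. In HFD the call of Slc25a42 was kept without chow mouse 3 or HFD mouse 10, and that of Slc25a1 without chow mouse 4. At 3 h the call of Slc25a48 was lost without controls B2, B3 or B4 or treated mice B8 or B9. Counts below 10 per mouse, as in Slc25a29 and Slc25a34, limit the precision of their fold changes.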
